A study of Homo sapiens with 8 samples.

Results

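De novo purine synthesis was described through 10 genes of the pathway, namely PPAT, GART, PFAS, PAICS, ADSL, ATIC, ADSS, GMPS, IMPDH1 and IMPDH2. They were chosen by name from the 23393 genes of a read-count table, and all 10 were among the 15262 genes with enough reads to be tested. RNA-seq had been performed on MDA-MB-231, a triple-negative breast cancer line that lacks the arginine-making enzyme ASS1, and on ρ0 cells derived from it, whose mitochondrial DNA had been depleted with ethidium bromide. The study compared how both lines respond to loss of arginine.

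The 4 groups were parental cells in full medium, parental cells starved of arginine for 48 h, ρ0 cells in full medium and ρ0 cells starved of arginine for 48 h, with 2 libraries in each. The labels describe starvation as arginine deiminase, an arginine-degrading enzyme, at 0.3 µg/mL in full medium, whereas the study's text describes arginine-starved medium. All ρ0 libraries came from 1 clone, number 27, and the study kept these cells in medium with added pyruvate, uridine and ethidium bromide, so effects of the clone, the medium and the loss of mitochondrial DNA cannot be told apart. None of the 13 protein-coding genes of the mitochondrial genome was listed in the table, so its depletion could not be checked here. The labels do not say whether libraries of a group came from separate cultures, so p-values measure the spread between these samples, which may be technical.

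Cells build the purine ring on activated ribose phosphate, PRPP, in a chain of reactions that ends at inosine monophosphate (IMP). The chain takes up glycine, glutamine, aspartate, carbon dioxide and formyl groups carried by folate. IMP then branches to AMP, through ADSS and ADSL, and to GMP, through the IMP dehydrogenases and GMPS. Proliferating tumour cells use this route heavily, and it costs more ATP than salvage of ready-made bases.

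Libraries held 25259503 to 31022155 counts, and values below are CPM, read counts scaled to a common library size by TMM, unless stated. VIM, CD44, AXL and CAV1, which mark the mesenchymal MDA-MB-231 line, were read in every library. CDH1, EPCAM and ASS1 were at 2, 15 and 10 counts or fewer in parental libraries, and at 104 to 457, 397 to 697 and 183 to 684 counts in ρ0 libraries. These 3 genes moved with the line, and their part in the results was not tested. The 2 ρ0 control libraries stood apart from each other: their coefficient of variation beyond counting noise was 25.1%, against 5.16%, 2.29% and 1.84% within parental control, parental starved and ρ0 starved cells. Calls that rest on ρ0 control cells are therefore also given without each of them. This assumes that the remaining library varies like the other groups. The main fit estimates the spread of a gene from all 8 libraries, so parental SEs and p-values also rest on the ρ0 control pair. Some parental calls are therefore also given from a fit to the parental libraries alone.

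In parental cells, arginine starvation went with higher levels of genes at the start of the pathway and at several later steps. PPAT rose 2.98-fold, GART 1.89-fold, ATIC 1.59-fold, IMPDH1 1.51-fold, PAICS 1.37-fold and ADSS 1.24-fold. PFAS, ADSL, GMPS and IMPDH2 did not pass the test. In all, 6 of the 10 genes were significantly higher (adjusted p under 0.05, edgeR's quasi-likelihood test with Benjamini-Hochberg adjustment over 15262 genes) and 0 lower, where 30.4% of all tested genes were higher and 35.5% lower. The count of lower members was also 0 at an unadjusted p under 0.05, 0 by DESeq2, and 2 by limma-voom with group weights. In edgeR's fit to the parental libraries alone, PFAS and ADSL were called lower, and IMPDH2 joined the higher members. The median log2 fold change was 0.38 over the 10 genes and -0.07 over all tested genes. By the study's rule for DEGs, which adds a log2 fold change above 1 or below -1, PPAT was the one up-regulated member and there were 0 down-regulated, against 12.7% and 22.1% of all tested genes.

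PPAT encodes the amidotransferase of the committed step from PRPP. It stood at 54.1 and 52.0 CPM in parental control libraries and at 150.3 and 166 CPM in starved ones. Both starved libraries thus lay far above both controls (log2 fold change 1.58, SE 0.19, adjusted p = 0.000221). GART, a trifunctional enzyme of the early and middle ring-building steps, was at 222 and 230.5 CPM in control and at 421 and 435 CPM in starved libraries. These groups did not overlap (log2 fold change 0.92, SE 0.12, adjusted p = 0.000330). GART's exons share 244 bases with the neighbouring gene SON on the opposite strand, and whether counting used strand is not given in the sources used here, so reads from that stretch cannot be assigned with certainty.

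PFAS, which adds a nitrogen from glutamine between the reactions of GART, went the other way in value. Its levels were 50.6 and 45.5 CPM in control and 37.2 and 35.8 CPM in starved libraries. The groups did not overlap, yet the difference missed the threshold in the shared fit (log2 fold change -0.40, SE 0.19, adjusted p = 0.0957). With the parental libraries fitted alone it passed (log2 fold change -0.37, adjusted p = 0.000182). PAICS, a bifunctional enzyme that carboxylates the ring precursor and joins it to aspartate, was at 289 and 287 CPM in control and 389 and 398 CPM in starved libraries. It was higher in both starved libraries (log2 fold change 0.45, SE 0.13, adjusted p = 0.0193), but not past the threshold when libraries were scaled by upper quartile (adjusted p = 0.0647) or total counts (adjusted p = 0.105).

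ADSL cleaves fumarate off at a late step before IMP and again on the way to AMP. Its levels were close in control (124 and 130 CPM) and starved (113 and 116 CPM) libraries, with a log2 fold change of -0.14, SE 0.12 and adjusted p of 0.326. The groups did not overlap, however. With the parental libraries fitted alone, ADSL was just past the threshold (log2 fold change -0.11, adjusted p = 0.0493). ATIC, the bifunctional enzyme of the final steps to IMP, was at 178 and 188 CPM in control and at 293 and 291 CPM in starved libraries. That difference exceeded the spread between libraries (log2 fold change 0.67, SE 0.17, adjusted p = 0.00912).

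On the AMP branch, ADSS, which joins aspartate to IMP, was at 65.9 and 65.6 CPM in parental control and at 79.7 and 83.1 CPM in starved libraries. The rise was small and replicated closely (log2 fold change 0.31, SE 0.07, adjusted p = 0.00587), but it missed the threshold when total counts alone set the scale (log2 fold change 0.15, adjusted p = 0.0973). On the GMP branch, IMPDH1, an isoform of the enzyme that oxidises IMP, was at 49.95 and 53.1 CPM in control and 78.7 and 76.3 CPM in starved libraries. Both starved values were above both controls (log2 fold change 0.59, SE 0.08, adjusted p = 0.000423). IMPDH2, the isoform known to predominate in proliferating cells, was at 239 and 245 CPM in control and 296 and 308 CPM in starved libraries. These groups did not overlap either, but the shared fit gave a log2 fold change of 0.32 with SE 0.28 (adjusted p = 0.341), and the fit to parental libraries alone 0.35 with an adjusted p of 3.76e-06. GMPS, which aminates XMP to GMP, was level: 133 and 130.3 CPM in control and 134 and 132 CPM in starved libraries (log2 fold change 0.01, SE 0.11, adjusted p = 0.932).

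**Figure D1:**
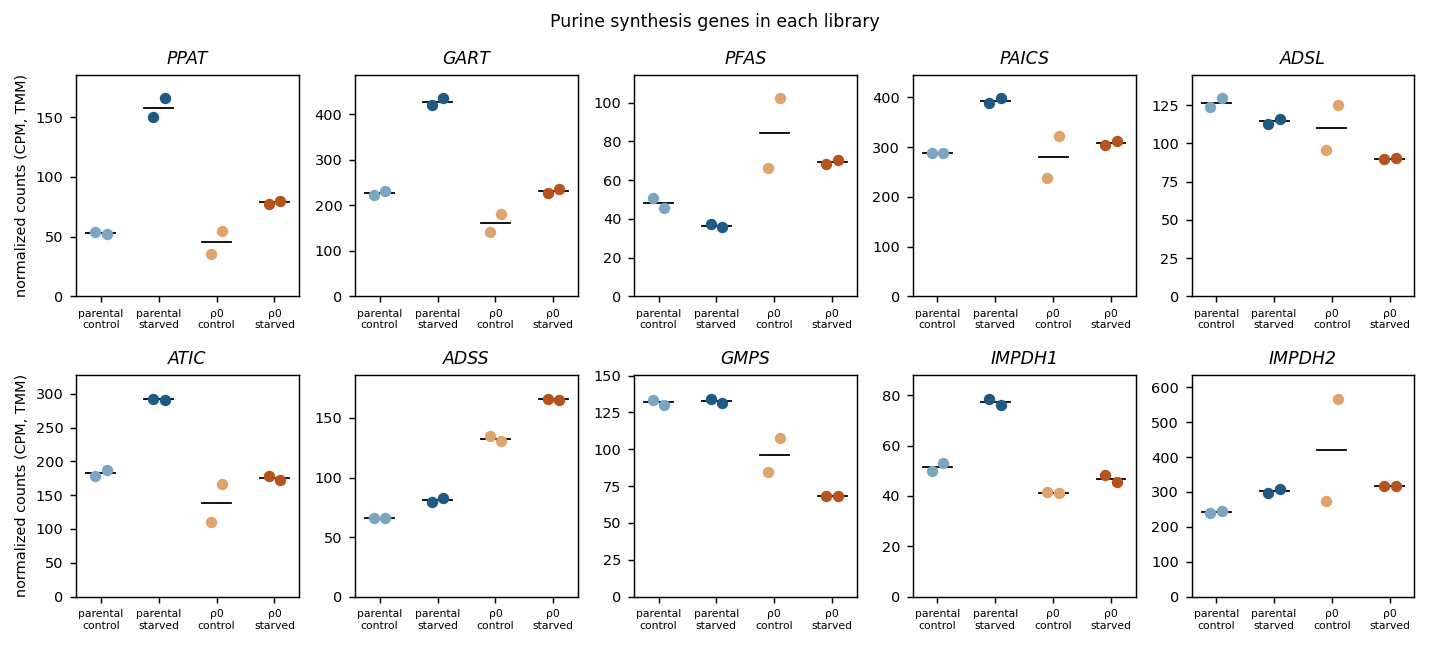
TMM-scaled read counts (CPM) of each of the 10 purine synthesis genes (vertical axes, from 0) in the 4 groups (horizontal axes); points are the 2 libraries of a group and the line is their mean. PPAT, GART and ATIC are highest in starved parental libraries, ADSS is higher in all ρ0 than in all parental libraries, and the 2 ρ0 control libraries lie apart for IMPDH2 (275 and 568 CPM).

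Sequences around the starts of 4 members that were higher in starved parental cells are shown because 2 of them, PPAT and PAICS, share a start region. They were chosen after the values were seen. The windows are RefSeq promoters of build GRCh38.p14, 250 bases before to 50 bases after a start, whereas the submitters' processing notes name hg19, and windows matched 8 of the 10 members (not ADSL and IMPDH2). PPAT and PAICS lie on opposite strands. The windows of PAICS belong to starts at -25108, 137 and 645 bases from the PPAT start in plus-strand coordinates, and the first of these lies within PPAT. From the start at 137, PAICS is transcribed away from PPAT. The 136 bases between that start and the PPAT start (chr4:56435616-56435751, plus strand) held no searched motif and are given in lower case throughout.
PPAT-PAICS: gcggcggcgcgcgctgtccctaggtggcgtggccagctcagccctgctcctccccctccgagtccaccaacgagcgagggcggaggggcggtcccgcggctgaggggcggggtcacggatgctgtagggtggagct
Further out, in the transcribed part of PAICS, 182 bases before the PPAT start, lay an E-box, in capitals (chr4:56435782-56435807, minus strand).
PPAT: cggagatttcCACGTGcagcaaatac
The ATIC stretch (chr2:215311973-215312058, plus strand, 86 bases up to its start) held an E-box 46 bases before the start, also in capitals. Another E-box, 29 bases after the start in the same window, is not shown.
ATIC: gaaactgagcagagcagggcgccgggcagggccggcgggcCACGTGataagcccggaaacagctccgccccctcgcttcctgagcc
The GART stretch (chr21:33542893-33543037, minus strand, 145 bases, ending at SON) held 3 CCAAT boxes, in capitals as CCAAT or its reverse complement ATTGG.
GART: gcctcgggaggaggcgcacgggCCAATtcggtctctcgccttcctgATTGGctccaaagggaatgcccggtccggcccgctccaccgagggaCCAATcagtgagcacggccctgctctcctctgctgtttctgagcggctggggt

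On both strands of the windows, the E-box CACGTG was found for 3 of the 8 members, PPAT, PAICS and ATIC, and for 8.77% of all 27305 genes with a window. PPAT and PAICS share the same match, so these are not separate occurrences. CCAAT was found for GART alone among the 8, and for 39.7% of all genes. CCGGAAGT was found for GART (4.95% of all genes) and TGANTCA for PAICS (9.37%). TGACGTCA, TGATGNAA and the NRF1 motif were found for 0 of the 8 members, and for 2.25%, 4.46% and 1.52% of all genes. Such matches describe the letters only.

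In ρ0 cells, PPAT rose 1.75-fold, GART 1.45-fold and ADSS 1.25-fold upon starvation, and GMPS fell to 71.2% of its control level. The other 6 genes did not pass the test. Thus 3 of 10 members were higher and 1 lower, where 19.2% of all tested genes were higher and 22.1% lower. There were 0 DEGs in either direction among the members, against 4.22% up-regulated and 8.19% down-regulated of all tested genes. The median log2 fold change was 0.16 over the members and -0.02 over all tested genes. When ρ0 libraries were fitted alone, so that their own spread decided, 0 members were higher and 0 lower (adjusted p 0.0692, 0.0665, 0.0694 and 0.0846 for PPAT, GART, ADSS and GMPS by edgeR).

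PPAT was at 35.2 and 54.9 CPM in ρ0 control and at 77.3 and 80.2 CPM in ρ0 starved libraries, so the groups were separate although the controls differed widely (log2 fold change 0.80, SE 0.18, adjusted p = 0.0114). It was 0.52 without the first ρ0 control library and 1.17 without the second, higher and past the threshold each time. GART was at 141 and 180.2 CPM in control and 228 and 236 CPM in starved libraries (log2 fold change 0.53, SE 0.12, adjusted p = 0.00974). That difference was 0.36 and 0.73 without the first and second control library. ADSS was at 135 and 130.4 CPM in control and 166 and 165 CPM in starved libraries, a difference that hardly depended on which control library was used (log2 fold change 0.32, SE 0.07, adjusted p = 0.00898; 0.35 and 0.31 without either). GMPS was at 84.7 and 107 CPM in control and 68.2 and 68.5 CPM in starved libraries, lower in both (log2 fold change -0.49, SE 0.11, adjusted p = 0.0115). It stood at -0.65 and -0.30 without the first and second control library.

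The remaining members gave smaller or less certain ρ0 responses. PAICS was at 237 and 322 CPM in control and at 305 and 312 CPM in starved libraries, and ATIC at 110.0 and 166 CPM against 178 and 172 CPM. PAICS overlapped between groups, and ATIC lay just above its higher control. IMPDH1, at 41.4 and 41.2 CPM against 48.2 and 45.6 CPM, was separate but small in difference (log2 fold change 0.18, SE 0.08, adjusted p = 0.106). ADSL was at 95.8 and 125 CPM in control and 90.0 and 90.2 CPM in starved libraries (log2 fold change -0.29, SE 0.12, adjusted p = 0.0925). PFAS went from 66.1 and 102 CPM to 68.1 and 70.3 CPM, and IMPDH2 from 275 and 568 CPM to 317 and 318 CPM. For both genes the starved values lay between the 2 controls, and the direction turned with the control library that was left out: the log2 fold change of IMPDH2 was -0.84 without the first (called lower) and 0.22 without the second (called higher). Over all 10 genes, 4 were higher and 4 lower without the first ρ0 control library, and 7 were higher and 1 lower without the second. Calls rose among all genes too: 30.95% of tested genes were higher and 31.8% lower without the first, and 30.8% and 31.6% without the second. Leaving out the first ρ0 starved library gave 1 higher and 0 lower, and leaving out the second gave 0 of each.

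**Figure D2:**
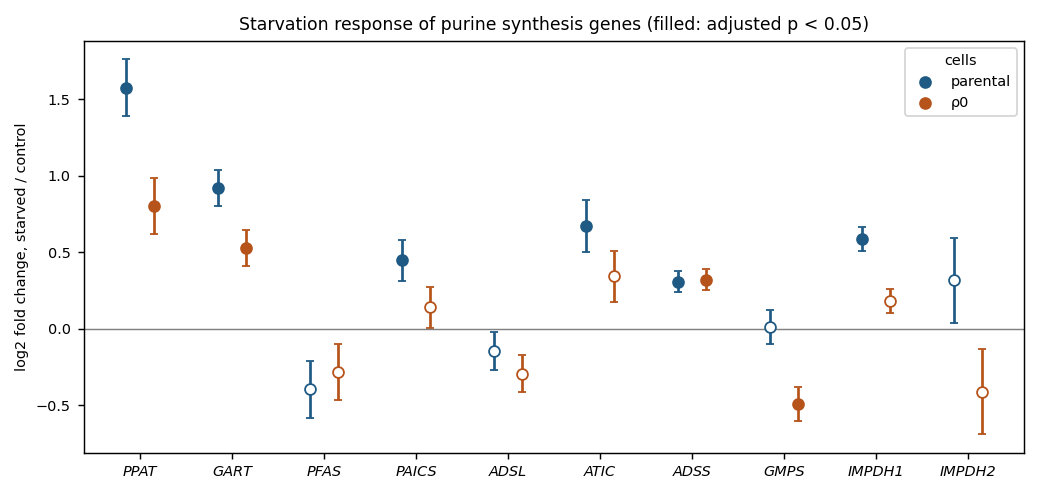
Log2 fold change of arginine-starved against control cells (vertical axis) for the 10 genes in parental and ρ0 cells. Genes on the horizontal axis are in the order in which the text first lists them. Bars are standard errors of edgeR's quasi-likelihood fit and filled points have an adjusted p under 0.05. The parental value is above the ρ0 value for all genes except PFAS and ADSS, and PPAT has the highest value in both lines (1.58 and 0.80).

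The difference between the responses was tested as an interaction, the ρ0 response minus the parental one. PPAT (-0.77, SE 0.26, adjusted p = 0.0480), GMPS (-0.50, SE 0.16, adjusted p = 0.0390) and IMPDH1 (-0.41, SE 0.11, adjusted p = 0.0244) responded less upward in ρ0 cells. Thus 3 of 10 members were lower and 0 higher, where 18.8% of all tested genes were lower and 21.6% higher. GART differed by -0.39 (SE 0.16, adjusted p = 0.0989) and IMPDH2 by -0.73 (SE 0.39, adjusted p = 0.179). ADSS responded by 0.31 in parental and 0.32 in ρ0 cells, a difference of 0.01 with SE 0.10. The median difference was -0.36 over the 10 genes and 0.02 over all tested genes.

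These 3 interaction calls depended on scaling and on the libraries. With upper quartile scaling or total counts alone, 0 members were called (adjusted p 0.0758, 0.0821 and 0.0634 for PPAT, GMPS and IMPDH1 with upper quartile). Without the first ρ0 control library 8 members were lower, and without the second 4 were lower and 1, PFAS, was higher. In the same refits 31.7% and 29.7% of all tested genes were lower and 34.2% and 29.8% higher. PPAT, GMPS and IMPDH1 were past the threshold in both cases, with differences of -1.05, -0.66 and -0.40 without the first and -0.44, -0.35 and -0.44 without the second. Leaving out any 1 of the 6 other libraries gave 0 lower calls.

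In full medium, ρ0 cells had more ADSS, PFAS and IMPDH2 and less GART, GMPS and IMPDH1 than parental cells. The 3 higher and 3 lower members stood against 30.5% and 31.8% of all tested genes. ADSS was at 65.9 and 65.6 CPM in parental and 135 and 130.4 CPM in ρ0 control libraries, and was the one up-regulated DEG (2.02-fold, log2 fold change 1.01, SE 0.07, adjusted p = 2.03e-05). With 1 up-regulated and 0 down-regulated DEG, the members stood against 13.6% and 17.3% of all tested genes. PFAS was 1.75-fold higher (log2 fold change 0.81, SE 0.18, adjusted p = 0.00638) and was above both parental controls in both ρ0 controls. Its difference was 1.09 and 0.51 without the first and second ρ0 control library. IMPDH2 was 1.74-fold higher (log2 fold change 0.80, SE 0.28, adjusted p = 0.0381), a value set largely by the second ρ0 control library, as it was 1.23 without the first and 0.24 without the second. Its call was lost with total counts alone (adjusted p = 0.0629), by limma-voom and when any 1 library of the other groups was left out.

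The lower members in full medium were GART (log2 fold change -0.50, SE 0.12, adjusted p = 0.00739), GMPS (-0.46, SE 0.11, adjusted p = 0.00880) and IMPDH1 (-0.32, SE 0.08, adjusted p = 0.00961). Their values without the first ρ0 control library were -0.33, -0.29 and -0.32, and without the second -0.63, -0.58 and -0.26. IMPDH1 lost its call by limma-voom with group weights (adjusted p = 0.144) and without the second parental control library (adjusted p = 0.0634). ATIC missed the threshold (-0.41, SE 0.17, adjusted p = 0.0689), as did ADSL and PPAT. PAICS differed by -0.04 (SE 0.13), and it was called higher without the first ρ0 control library (0.16, adjusted p = 0.00314) and lower without the second (-0.23, adjusted p = 0.000206). Without the first, 4 members were higher and 4 lower, where 37.7% and 39.5% of all tested genes were. Without the second, 3 were higher and 7 lower, where 39.0% and 37.3% of all tested genes were, and without the second parental control library 2 were lower and 1 higher.

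After starvation, where libraries of each group lay close together, the main fit called more members between the lines than in full medium. The full-medium count changed with the ρ0 control library left out, so the media are not shown to differ in this. Lower in ρ0 cells were PPAT, GMPS, GART, ATIC, IMPDH1, PAICS and ADSL, which is 7 of 10 where 33.5% of all tested genes were lower. Of these, PAICS (log2 fold change -0.35, adjusted p = 0.0489) and ADSL (-0.35, adjusted p = 0.0374) were near the threshold and lost it with upper quartile scaling (adjusted p = 0.103 and 0.0842), with no filter on low counts, and when any 1 library outside ρ0 control was left out. PAICS also lost it with DESeq2 size factors. Higher were ADSS and PFAS, 2 of 10 where 32.9% of all tested genes were higher. IMPDH2 was alike in value (302 ± 9 and 317 ± 1 CPM, mean ± SD, n = 2; log2 fold change 0.07, SE 0.28). PPAT, at 150.3 and 166 CPM in parental and 77.3 and 80.2 CPM in ρ0 starved libraries, was at 49.8% of the parental level (log2 fold change -1.01, SE 0.18, adjusted p = 0.00192). GMPS was at 51.4% (log2 fold change -0.96, SE 0.11, adjusted p = 0.000209) and GART at 54.2% (log2 fold change -0.88, SE 0.12, adjusted p = 0.000379). ADSS was 2.04-fold higher (log2 fold change 1.03, SE 0.07, adjusted p = 1.55e-05) and PFAS 1.90-fold higher (log2 fold change 0.92, SE 0.19, adjusted p = 0.00326). DEGs were ADSS upward and PPAT downward, 1 each, against 18.7% and 16.8% of all tested genes. The 5 comparisons share libraries, so their values for a gene are not independent of each other. In bulk libraries a change in every cell and a change in the share of cells with much of an RNA cannot be told apart.

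Ratios of read counts within a library do not depend on scaling. PPAT reads per PAICS read, from the gene pair with the shared start region, were 0.187 and 0.181 in parental control, 0.387 and 0.417 in parental starved, 0.149 and 0.171 in ρ0 control and 0.254 and 0.257 in ρ0 starved libraries. The neighbours therefore did not change in step: both starved groups lay above all control libraries, and starved parental above starved ρ0 cells. GMPS reads per ADSS read set a single gene of the GMP branch against a single gene of the AMP branch, and do not stand for the branches. These ratios were 2.02 and 1.99 in parental control and 1.69 and 1.58 in parental starved libraries. They were 0.628 and 0.824 in ρ0 control and 0.410 and 0.415 in ρ0 starved libraries, so every ρ0 library was under every parental one and each starved group under its control. GART reads per PFAS read went from 4.39 and 5.07 to 11.3 and 12.2 in parental cells and from 2.13 and 1.76 to 3.34 and 3.36 in ρ0 cells. IMPDH2 reads per IMPDH1 read were 4.79 and 4.62, then 3.76 and 4.04, in parental control and starved libraries. The same ratio was 6.65 and 13.8, then 6.58 and 6.98, in ρ0 control and starved libraries. The ratios are given as values only. No test was run on them, and an exact permutation test of 2 against 2 libraries could not go below p = 0.333.

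**Figure D3:**
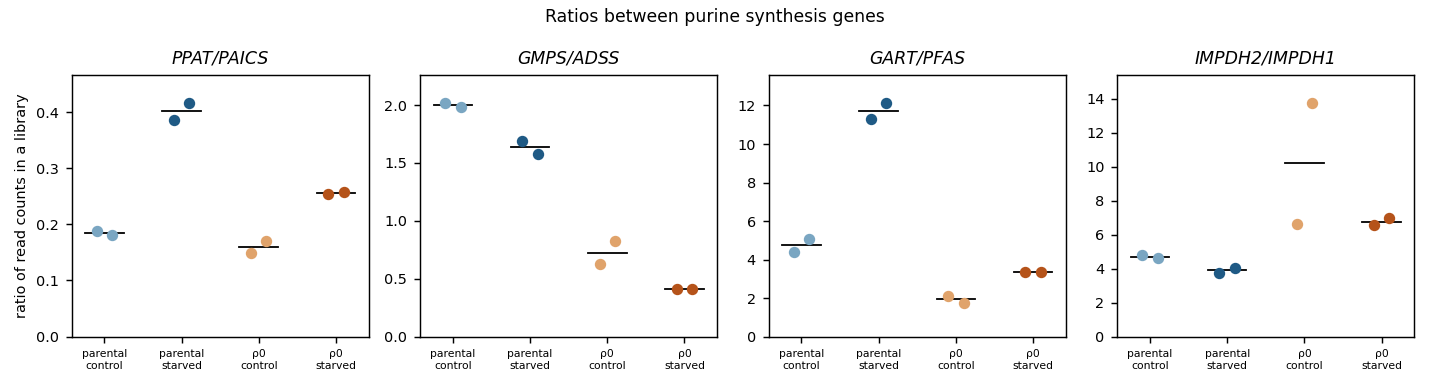
Ratios of raw read counts between 2 purine synthesis genes in 1 library (vertical axes, from 0) in the 4 groups (horizontal axes); points are libraries and lines their means. PPAT/PAICS and GART/PFAS are higher in both starved groups than in their controls, while GMPS/ADSS is lower in ρ0 than in parental libraries and lower after starvation in each line.

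Levels between the genes were compared as CPM per kilobase. With the exon length of GENCODE v29 models, IMPDH2 was the highest of the 10 in all 4 groups and ATIC the next. IMPDH2 was at 147 CPM per kilobase and PFAS, the lowest, at 8.95 in parental control cells. PPAT moved from rank 9 in control to rank 5 in starved parental cells, and from rank 9 to rank 6 in ρ0 cells. ADSS was at rank 3 in both ρ0 groups and at rank 6 in both parental groups. The order depends on the length used: by coding length, which is 1296 bases for PAICS against 6703 bases of exons, PAICS was highest in all groups except ρ0 control cells, where IMPDH2 was. By coding length PPAT still moved up upon starvation, from rank 8 to rank 5 in parental and to rank 7 in ρ0 cells. Between neighbours in the order by exon length, the 2 libraries of a gene overlapped with those of the next gene only in ρ0 control cells.

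Summed over the 10 genes, the level was 1406 and 1427 CPM in parental control, 1992 and 2041 CPM in parental starved, 1221 and 1797 CPM in ρ0 control and 1545 and 1558 CPM in ρ0 starved libraries. The starved parental libraries were above all others, and the 2 ρ0 control libraries lay on either side of the parental control and ρ0 starved ones. The genes closest to the members' mean pattern over the 4 group means of centred log2 CPM, among genes with a mean of at least 10 CPM, were IKBIP (distance 0.016), UBE2L3 (0.048) and HN1L (0.056). Of the members, PAICS was nearest to that mean (0.078), and ADSS (1.16), PFAS (1.16) and PPAT (1.07) were farthest.

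The supply of PRPP was described by its synthetase genes. PRPSAP2, a regulatory subunit, was at 27.9 and 30.3 CPM in parental control and 59.1 and 59.4 CPM in starved libraries, a rise (log2 fold change 1.03, adjusted p = 0.000160), while PRPSAP1, the other regulatory subunit, fell (-0.74, adjusted p = 0.000388). The catalytic PRPS1 and PRPS2 had log2 fold changes of 0.07 and -0.01 in parental cells, neither past the threshold. In ρ0 cells PRPS1 fell from 92.5 and 117 CPM to 61.0 and 57.2 CPM (log2 fold change -0.83, adjusted p = 0.00148) and PRPS2 fell by 0.39 (adjusted p = 0.0473). Without the first and second ρ0 control library these were -0.99 and -0.63 for PRPS1 and -0.58 and -0.15 for PRPS2, each still called lower. Thus 1 of 4 genes was higher and 1 lower in parental cells, against 30.4% and 35.5% of all tested genes, and 0 higher and 2 lower in ρ0 cells, against 19.2% and 22.1%.

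Salvage and interconversion genes, which recycle bases and nucleosides or degrade purines, were called in both directions in parental cells: of 14 tested, 5 were higher and 6 lower, near the 30.4% and 35.5% of all tested genes, with a median log2 fold change of -0.28. The genes called with the largest changes, XDH, ADA, ADSSL1 and AMPD2, were all lower. XDH, the last enzyme of purine breakdown, was at -2.52 and ADA, adenosine deaminase, at -1.55. ADSSL1, the muscle form of ADSS, was at -1.27 and AMPD2, an AMP deaminase, at -0.94. The higher ones were APRT and PNP (0.84 each), HPRT1 (0.74), NT5C2 (0.49) and DGUOK (0.43). Summed over the list, the level was 957 and 986 CPM in parental control and 1109 and 1119 CPM in parental starved libraries. In ρ0 cells 0 were higher and 4 lower (19.2% and 22.1% of all tested genes), which became 2 and 8 without the first ρ0 control library and 4 and 6 without the second. Of 7 tested nucleotide kinase genes, 4 were higher in starved parental cells, among them NME1 (log2 fold change 1.16), AK3 (0.59) and AK1 (0.31), and AK4 was lower (-0.49), against 30.4% and 35.5% of all tested genes. In ρ0 cells 0 of the 7 were higher and 1 lower, against 19.2% and 22.1%, with 1 and 1 without the first ρ0 control library and 3 and 3 without the second.

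Folate enzymes that supply formyl groups to GART and ATIC were called in both directions. In parental cells 2 of 10 were higher and 3 lower, near the 30.4% and 35.5% of all tested genes. MTHFD2, of the mitochondrial branch, rose from 53.7 and 52.1 to 153 and 161.5 CPM (log2 fold change 1.57), and ALDH1L2 rose by 2.36 on the log2 scale at 7 to 47 counts a library. SHMT1, of the cytosolic branch, was among the lower ones (-1.41). Over the list, however, neither branch moved as a whole in parental cells. The mitochondrial SHMT2 was at -0.49 and -0.45 without the first and second ρ0 control library. The cytosolic MTHFD1 was at 0.36, not past the threshold. In ρ0 cells 2 were higher and 5 lower, against 19.2% and 22.1% of all tested genes, with 3 and 5 without the first ρ0 control library and 4 and 5 without the second. MTHFD2 again rose (log2 fold change 1.38, and 1.01 and 1.90 without the first and second ρ0 control library).

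Ribonucleotide reductase turns purine and pyrimidine ribonucleotides into precursors of DNA. RRM2, its small subunit, fell from 153 and 151 to 62.1 and 59.2 CPM in parental cells (log2 fold change -1.33) and from 215 and 406 to 66.9 and 62.8 CPM in ρ0 cells (-2.26). RRM1 fell by 0.46 in parental and by 1.36 in ρ0 cells on the log2 scale. In ρ0 cells RRM2 was at -2.64 and -1.71, and RRM1 at -1.55 and -1.11, without the first and second ρ0 control library. RRM2B, the alternative small subunit, did not pass the test in either line (0.17 and 0.12). Without the first and second ρ0 control library it was at 0.16 and 0.20 in parental and at 0.27 and -0.014 in ρ0 cells. Of 12 proliferation genes, 6 were lower in starved parental and all 12 in starved ρ0 cells, with 0 higher. Of all tested genes, 35.5% and 22.1% were lower. The log2 fold change was below 0 for 11 of the 12 in parental cells and for all 12 in ρ0 cells, with medians of -0.45 and -1.44. The parental count of 6 rests on a spread that includes the ρ0 control libraries, so the counts do not compare the lines. All 12 were also lower in ρ0 cells with each ρ0 control library left out in turn. Their summed level was 2936 and 2884 CPM in parental control, 1598 and 1589 CPM in parental starved, 3474 and 3952 CPM in ρ0 control and 1282 and 1287 CPM in ρ0 starved libraries. Their part in the levels of the purine genes was not tested.

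**Figure D4:**
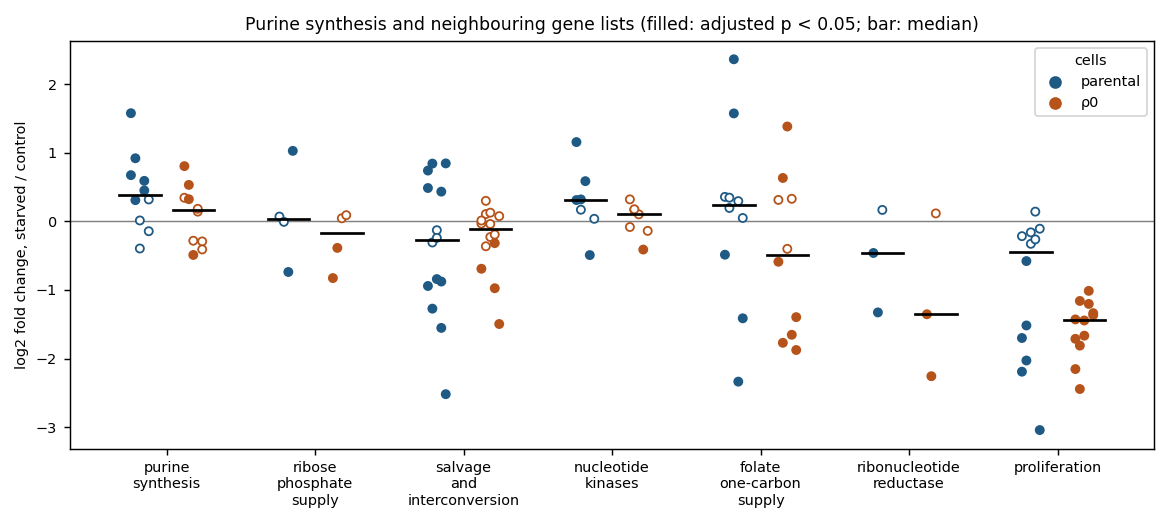
Log2 fold change of arginine-starved against control cells (vertical axis) for each tested gene of the purine synthesis list and 6 neighbouring lists (horizontal axis), in parental and ρ0 cells; filled points have an adjusted p under 0.05 and black bars are medians. The purine synthesis median lies above 0 in both lines (0.38 and 0.16), and the proliferation and ribonucleotide reductase medians lie below 0 in both.

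Among 6 transcription factors listed for nucleotide and stress-response genes, MYC, a driver of growth genes, rose from 588 and 590 to 3102 and 3154 CPM in parental cells (log2 fold change 2.41, adjusted p = 1.7e-05). In ρ0 cells MYC rose from 132 and 186 to 633.5 and 637 CPM (log2 fold change 2.0, adjusted p = 0.000182), so that starved ρ0 cells stood near unstarved parental cells. ATF4, the factor of the amino acid response, rose from 159 and 163 to 543 and 537 CPM in parental cells (1.75) and from 144 and 200.6 to 322 and 319 CPM in ρ0 cells (0.89). The ATF4 response was smaller in ρ0 cells (interaction -0.85, adjusted p = 0.014), and for MYC the interaction was -0.41 (adjusted p = 0.15). Without the first and second ρ0 control library, the ρ0 response was 1.77 and 2.28 for MYC and 0.68 and 1.17 for ATF4. The interaction was then -0.64 and -0.17 for MYC and -1.07 and -0.62 for ATF4, past the threshold each time. GABPA fell in both lines (-0.94 and -0.34), E2F1 fell in ρ0 cells (-1.58) with -0.36 in parental cells, and NRF1 did not pass the test in either (0.24 and 0.14). Without the first and second ρ0 control library, the ρ0 responses were -0.31 and -0.37 for GABPA and -1.99 and -1.01 for E2F1. For NRF1 they were 0.030 and 0.27, and its parental responses were then 0.23 and 0.28. MYCN had 117 and 94 counts in parental control, 3 and 2 in parental starved and 0 in every ρ0 library. The relation of these factors to the purine genes was not tested.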

How the data were processed

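For the 8 libraries the authors deposited raw counts of reads, 1 value per gene symbol and library, without normalization. The submitters' processing notes name Bowtie, Partek and hg19, without roles or versions. Strandedness and handling of reads shared with pseudogenes are not given in the sources used here: RefSeq lists pseudogenes of PPAT, PAICS, GMPS and IMPDH1, of which 0 are in the table. ADSS is ADSS2 in RefSeq.

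The main analysis used edgeR 4.0.16 under R 4.3.3, and alternatives used DESeq2 1.42.0 and limma 3.58.1. Genes passing filterByExpr, 15262 of 23393, were scaled by TMM and fitted by the quasi-likelihood model with 1 mean per group over all 8 libraries (4 residual and 3.40 prior degrees of freedom, biological coefficient of variation 12.4%). Contrasts were starved against control in each line, their difference (ρ0 minus parental), and ρ0 against parental in each medium. P-values were Benjamini-Hochberg adjusted over all tested genes. For each standard error (SE), the log2 fold change was divided by √F. Scripts were tested on simulated data.

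All 10 members were named. Of related lists, up to 4 called genes with the largest parental change were named, and all genes of PRPP supply, ribonucleotide reductase and transcription factors; some genes that this rule names are not reported here. AK1, the higher salvage genes, MTHFD2 in ρ0 cells and sequences shown were added after values were seen. The members and lists were chosen with earlier results of these data known.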

Additional observations from a re-analysis of the deposited data

Results flagged for a closer look

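PPAT, GMPS and IMPDH1 were called lower in the interaction term of edgeR's quasi-likelihood fit, where 18.8% of all tested genes were lower and 21.6% higher. The ρ0 response minus the parental response was -0.77 for PPAT (adjusted p = 0.0480), -0.50 for GMPS (adjusted p = 0.0390) and -0.41 for IMPDH1 (adjusted p = 0.0244) on the log2 scale. These calls were lost with upper quartile scaling (adjusted p 0.0758, 0.0821 and 0.0634 by the same test). They were also lost with total counts alone (0.0765, 0.0826 and 0.057), so a difference between the lines is not settled. PPAT was higher upon starvation in both lines, 2.98-fold in parental and 1.75-fold in ρ0 cells. GMPS was level in parental cells (log2 fold change 0.01) and lower in ρ0 cells (-0.49). IMPDH1 was higher in parental cells (0.59) and did not pass the test in ρ0 cells (0.18).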

How the results depend on the processing

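Among recomputed values of single members outside leaving out a library, 429 kept direction and side of the threshold, 12 passed it newly, 26 no longer passed it and 3 turned sign. Members lower in starved parental cells numbered 0 as reported, 1 with upper quartile scaling, 1 with total counts alone, 2 with limma-voom weighted by group, a setting chosen with an earlier analysis known, and 2 with parental libraries fitted alone. With ρ0 libraries fitted alone, 0 members were higher and 0 lower. Interaction calls fell from 3 to 0 with upper quartile scaling and to 0 with total counts alone. GMPS in parental cells turned to -0.11 with upper quartile scaling, -0.15 with total counts and -0.021 with at least 10 counts in every library. The median of all tested genes in the parental response fell by 0.12 with upper quartile scaling and by 0.16 with total counts, and the members fell with it.

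Leaving out 1 library in turn gave 4 to 7 members higher and 0 to 2 lower in parental cells, 0 to 7 higher and 0 to 4 lower in ρ0 cells, 0 to 1 higher and 0 to 8 lower in the interaction, 1 to 4 higher and 2 to 7 lower between lines in full medium, and 2 to 3 higher and 5 to 7 lower after starvation. Signs turned for these members, whose values ranged from -0.0081 to 0.051 for GMPS in parental cells, from -0.062 to 0.39 for PAICS, -0.56 to 0.078 for PFAS and -0.84 to 0.22 for IMPDH2 in ρ0 cells, from -0.036 to 0.046 for ADSS, -0.16 to 0.44 for PFAS and -0.32 to 0.030 for ADSL in the interaction, and from -0.54 to 0.051 for PPAT and -0.23 to 0.16 for PAICS between lines in full medium.

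The labels number replicates, but deviations of same-numbered libraries correlated between -0.12 and 0.07, so the numbers were not taken as pairs. With a replicate block, 6 members were higher and 0 lower in parental cells, 3 and 1 in ρ0 cells, 0 and 2 in the interaction, 3 and 3 between lines in full medium and 2 and 7 after starvation. With 2 libraries per group, a member that did not pass is not shown to be unchanged.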
